A study of Homo sapiens with 12 samples.

Results

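The HOX cluster genes encode the homeodomain transcription factors that give cells their position along the body axis, and 24 of them were followed in MDA-MB-231 cells. They were chosen from the deposited array values as the probe sets whose only gene symbol is HOXA, HOXB, HOXC or HOXD with a number, so antisense transcripts and probe sets shared between HOX genes were left out. Each gene had 1 such probe set. The 24 are of 22392 genes that could be named in this way, and of 39 protein-coding HOX genes that RefSeq lists. HOXA2 on chromosome 7 was the only member from the HOXA cluster, beside 9 genes of HOXB on chromosome 17, 6 of HOXC on chromosome 12 and 8 of HOXD on chromosome 2. The other HOX genes were not analysed here.

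HOX genes lie in clusters in which their order along the chromosome follows the order in which they are used from head to tail, and genes with the same number in different clusters, called paralogues, descend from the same ancestral gene. Polycomb complexes keep the clusters silent where they are not used, trithorax-type complexes keep active members on, and retinoic acid switches on the low-numbered end during development. HOX proteins bind DNA together with partners of the TALE homeobox family (PBX, MEIS), and many breast tumors express HOX genes outside their normal pattern.

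MDA-MB-231 is an established triple-negative human breast cancer cell line, which lacks the estrogen and progesterone receptors and HER2. The cells were exposed for 48 hours to DMSO as vehicle, to 1 μM JQ1, a BET inhibitor that takes the place of acetylated histones in bromodomains, to 3.17 μM mocetinostat, which blocks the class I enzymes that deacetylate histones, or to the 2 compounds together. RNA from 3 samples per treatment was hybridized to Affymetrix Human Gene 2.1 ST arrays (12 in all), and signals are log2 values summarized by RMA. The comparisons ask how each compound changes expression, what the second compound adds, and whether the combination departs from the sum of the single effects on the log2 scale. JQ1, mocetinostat and the combination were compared with the same 3 DMSO arrays, so these comparisons are not independent of each other. In RNA from a whole culture, fewer expressing cells and less RNA per cell cannot be told apart.

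A gene was called up or down where limma gave p under 0.001 before adjustment and its signal differed by 2-fold or more. Adjusted p values (Benjamini-Hochberg over 53617 probe sets) are given with it. To judge whether a gene gave signal at all, its mean in a treatment was set against 358 olfactory receptor genes, taken as genes that are silent in this cell line. The 95th percentile of their means, named the silent-gene threshold below, was 3.55 in DMSO, 3.66 in JQ1, 3.57 in mocetinostat and 3.66 in the combination. The array medians lay between 3.58 and 3.66. Of the markers of mesenchymal breast cancer cells, 7 of 7 measured were above the threshold in DMSO, with means from 7.61 to 12.23, among them vimentin (VIM, 10.39 ± 0.08, SD, n = 3) and AXL (12.23 ± 0.05). Of 7 luminal markers 3 were above it (KRT19, GATA3 and EPCAM), whereas the hormone receptor genes ESR1 (3.22 ± 0.42) and PGR (3.07 ± 0.12) were not. Of 5 blood and endothelial markers, CD14 alone was above it.

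Most HOX genes gave little signal. In DMSO, 14 of the 24 members were above the silent-gene threshold, and 10 were below it in every treatment. In any treatment, 4 members exceeded the 99th percentile of the olfactory receptor genes (4.25 in DMSO): HOXB3, HOXB9, HOXD1 and HOXD10. By cluster, HOXA2 was below the threshold throughout, 6 of 9 HOXB genes and 6 of 8 HOXD genes were above it in at least 1 treatment, and 2 of 6 HOXC genes were (HOXC8 and HOXC12). A gene at this level can lose little more signal, and the array does not tell a silent gene from a very weak one.

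**Figure D1:**
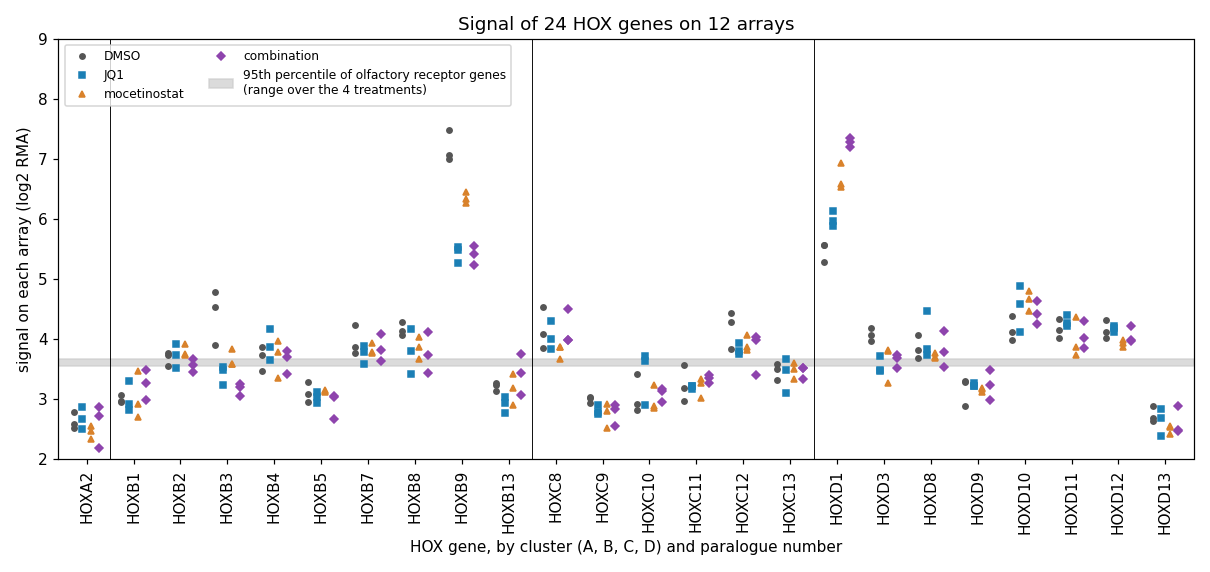
Signal of each of the 24 HOX genes on the 12 arrays (vertical axis, log2 RMA, starting at 2), with genes ordered by cluster and paralogue number and 3 points per treatment. The grey band spans the silent-gene threshold of the 4 treatments (3.55 to 3.66), and HOXB9 and HOXD1 are the members whose every array lies above 5.

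Among the 24 members the calls fell on 3 genes and ran in opposite directions. Outside the members, 2 probe sets that list HOXD3 and HOXD4 together were called down with each treatment. HOXB9 went down with JQ1 and with the combination, HOXB3 went down with the combination, and HOXD1 went up with mocetinostat and with the combination. With JQ1, 0 of the 24 members were called up and 1 was called down, where 2.14% and 4.51% of all 22392 genes were called in these directions. With mocetinostat, 1 was called up (7.08% of all genes) and 0 down (5.50%). The combination gave 1 up (7.06%) and 2 down (8.11%). With the adjusted p alone held under 0.05, 4 members passed with JQ1 (27.2% of all genes), 4 with mocetinostat (38.4%) and 3 with the combination (41.4%). Over the 24 members the median log2 change was −0.05 for JQ1, −0.13 for mocetinostat and −0.07 for both compounds, beside 0.02, −0.01 and 0.00 over all genes. The JQ1 arrays of 1 member lay wholly above its DMSO arrays, and those of 5 members wholly below (21.2% and 20.4% of all genes). These counts were 2 and 7 for mocetinostat (26.6% and 25.1%), and 1 and 4 for the combination (25.8% and 26.1%). Lack of overlap with DMSO was thus common over all genes.

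**Figure D2:**
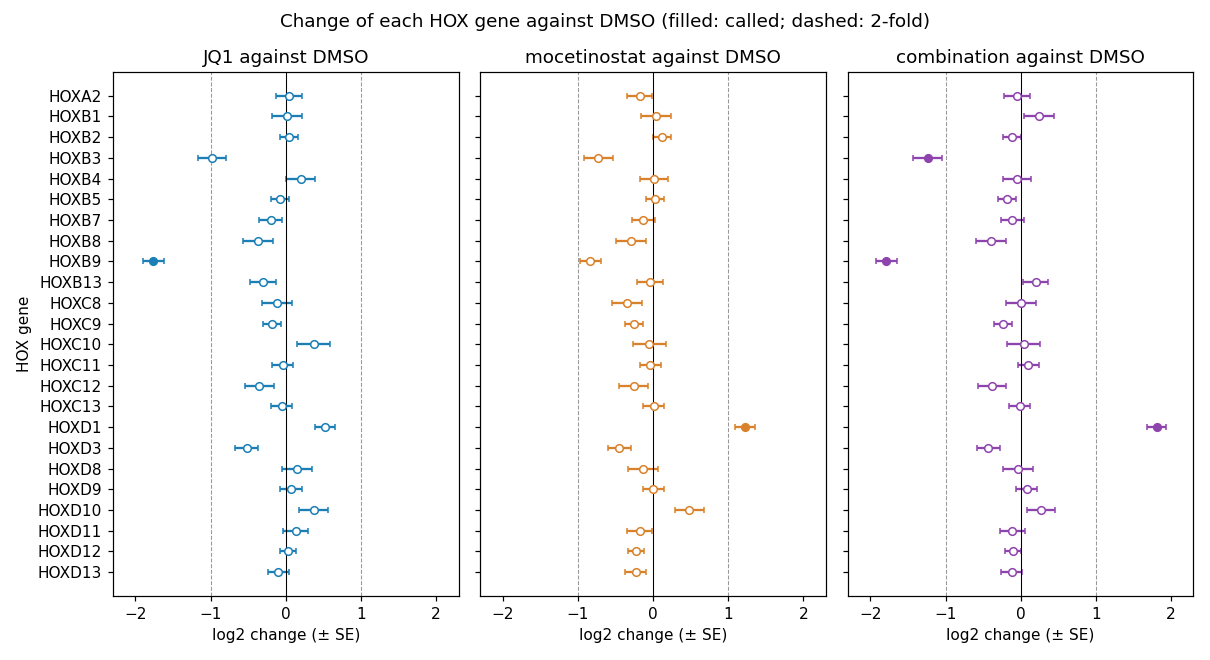
Log2 change of each of the 24 HOX genes against DMSO (horizontal axis, with its standard error), each treatment in its own panel. Filled points passed the call and dashed lines mark 2-fold: HOXB9 at −1.76 with JQ1, HOXD1 at 1.22 with mocetinostat, and HOXB9, HOXB3 and HOXD1 at −1.79, −1.24 and 1.81 with the combination.

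HOXB9 belongs to paralogue group 9, toward the posterior end of the clusters, and its protein acts in development of the mammary gland and the rib cage in mice. Its signal was 7.07, 7.49 and 7.0 on the DMSO arrays and 5.27, 5.54 and 5.49 on the JQ1 arrays. The mocetinostat arrays gave 6.34, 6.27 and 6.45, and the combination arrays 5.42, 5.24 and 5.55. All 9 treated arrays were therefore below all 3 DMSO arrays, mocetinostat lay between, and the arrays of JQ1 and of the combination overlapped. JQ1 lowered HOXB9 3.38-fold (log2 change −1.76, SE 0.14, adjusted p = 4.8e-06) and the combination 3.45-fold (−1.79, SE 0.14, adjusted p = 1.5e-06). With mocetinostat the change was −0.84 (SE 0.14, adjusted p = 8.0e-04), or 1.79-fold, which is below the minimum fold of the call. With a block for the number that the sample titles carry, this change was −1.07 and was called. These numbers are spread unevenly over the treatments, so this block and the treatments are partly confounded.

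The combination and JQ1 differed by −0.03 in HOXB9 (95% interval −0.34 to 0.28), so a further change larger than these bounds in either direction was not seen when mocetinostat was added to JQ1. Compared with mocetinostat alone, the combination was lower by a log2 change of −0.95 (SE 0.14, adjusted p = 7.8e-04), just short of the 2-fold minimum, and past it without the third combination array (−1.02). Mocetinostat alone was higher than JQ1 alone by 0.92 (SE 0.14, adjusted p = 5.3e-04). The sum of the single changes would have placed the combination lower than it was. This departure was 0.81 (95% interval 0.37 to 1.25, adjusted p = 0.0233), and HOXB9 was the only member with an adjusted p under 0.05 for it, where 17.8% of all genes had one. It was not called, but was with the block for the title number (1.15). The sum would give a level of 4.59, above the silent-gene threshold.

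The other measured genes of paralogue group 9 gave no such signal. HOXC9 lay at 2.99 ± 0.05 in DMSO and between 2.75 and 2.81 on average in the treatments, and HOXD9 at 3.16 ± 0.24 in DMSO and between 3.16 and 3.24, all below the silent-gene threshold. The neighbours of HOXB9 that were measured, HOXB8 and HOXB7, were above the threshold in every treatment without being called. HOXB8 had means of 4.16 ± 0.11 in DMSO, 3.79 ± 0.38 in JQ1, 3.86 ± 0.18 in mocetinostat and 3.76 ± 0.34 in the combination, and HOXB7 stayed between 3.76 and 3.96. HOXB13, at the posterior end of the cluster and known for its role in the prostate, was below the threshold in every treatment, with means from 2.91 to 3.42.

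HOXB3 belongs to the anterior part of HOXB, and its paralogue group patterns the hindbrain and pharyngeal region. The DMSO arrays gave 4.78, 4.53 and 3.90, the JQ1 arrays 3.23, 3.54 and 3.49, the mocetinostat arrays 3.58, 3.84 and 3.59, and the combination arrays 3.25, 3.20 and 3.05. Every treated array was below every DMSO array, and the means with JQ1 and the combination were below the silent-gene threshold, so these falls reached the level of silent genes. The log2 change was −1.24 with the combination (SE 0.19, adjusted p = 3.9e-04). It was −0.98 with JQ1 (SE 0.19, adjusted p = 0.00373) and −0.73 with mocetinostat (SE 0.19, adjusted p = 0.0152), neither of which reached 2-fold. The JQ1 change passed the call without the third DMSO array (−1.24) or without the second JQ1 array (−1.04). The combination and JQ1 differed by −0.25 (95% interval −0.68 to 0.17), and the departure from the sum was 0.48 (95% interval −0.12 to 1.08, adjusted p = 0.362). Both values lie under the silent-gene threshold, as does the level of 2.69 that the sum would give, so neither a further fall nor a departure could have been read here. A probe set that lists HOXB6 and HOXB3 together was below the threshold in DMSO (2.97) and was not called.

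HOXD3, the paralogue of HOXB3 in HOXD, was also lower in the treated samples. Its arrays read 4.07, 4.19 and 3.96 in DMSO, 3.46, 3.49 and 3.71 in JQ1, 3.80, 3.81 and 3.26 in mocetinostat, and 3.68, 3.51 and 3.74 in the combination. All treated arrays were below the DMSO arrays. The log2 changes were −0.52 (SE 0.15, adjusted p = 0.0354), −0.45 (SE 0.15, adjusted p = 0.0487) and −0.43 (SE 0.15, adjusted p = 0.0563) in that order, none of them 2-fold. The means with JQ1 and the combination were below the silent-gene threshold, so the probe set could show little further loss. Beside it, 2 brighter probe sets that list HOXD3 and HOXD4 together, and so belong to no member, were called down with each treatment, the brighter of them from 6.74 in DMSO to 5.58, 5.74 and 5.50 (log2 changes −1.16, −1.0 and −1.24, SE 0.11). HOXB2 and HOXB4, on either side of HOXB3, had means between 3.56 and 3.89 in the 4 treatments and were not called.

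HOXD1 lies at the anterior end of HOXD and belongs to paralogue group 1, whose members act in the hindbrain and, for HOXD1 in mice, in sensory neurons. The signals were ordered from DMSO, with 5.28, 5.57 and 5.56, through JQ1, with 5.96, 5.88 and 6.14, and mocetinostat, with 6.58, 6.54 and 6.93, to the combination, with 7.20, 7.29 and 7.35. No array of a treatment overlapped with an array of another. Mocetinostat raised HOXD1 2.32-fold (log2 change 1.22, SE 0.13, adjusted p = 2.3e-05) and the combination 3.51-fold (1.81, SE 0.13, adjusted p = 6.6e-07). With JQ1 the change was 0.52 (SE 0.13, adjusted p = 0.0157), which is 1.44-fold and not called.

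The combination lay above either compound alone. It was 2.44-fold above JQ1 alone (log2 change 1.29, SE 0.13, adjusted p = 2.4e-05). It was above mocetinostat alone by 0.60 (SE 0.13, adjusted p = 0.00897), less than 2-fold, and mocetinostat was above JQ1 by 0.69 (SE 0.13, adjusted p = 0.00206). The departure from the sum of the single changes was 0.07 (95% interval −0.33 to 0.48), which does not exclude departures within these bounds. HOXB1, the other member of group 1 measured, was below the silent-gene threshold in every treatment, with means from 2.99 to 3.24.

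**Figure D3:**
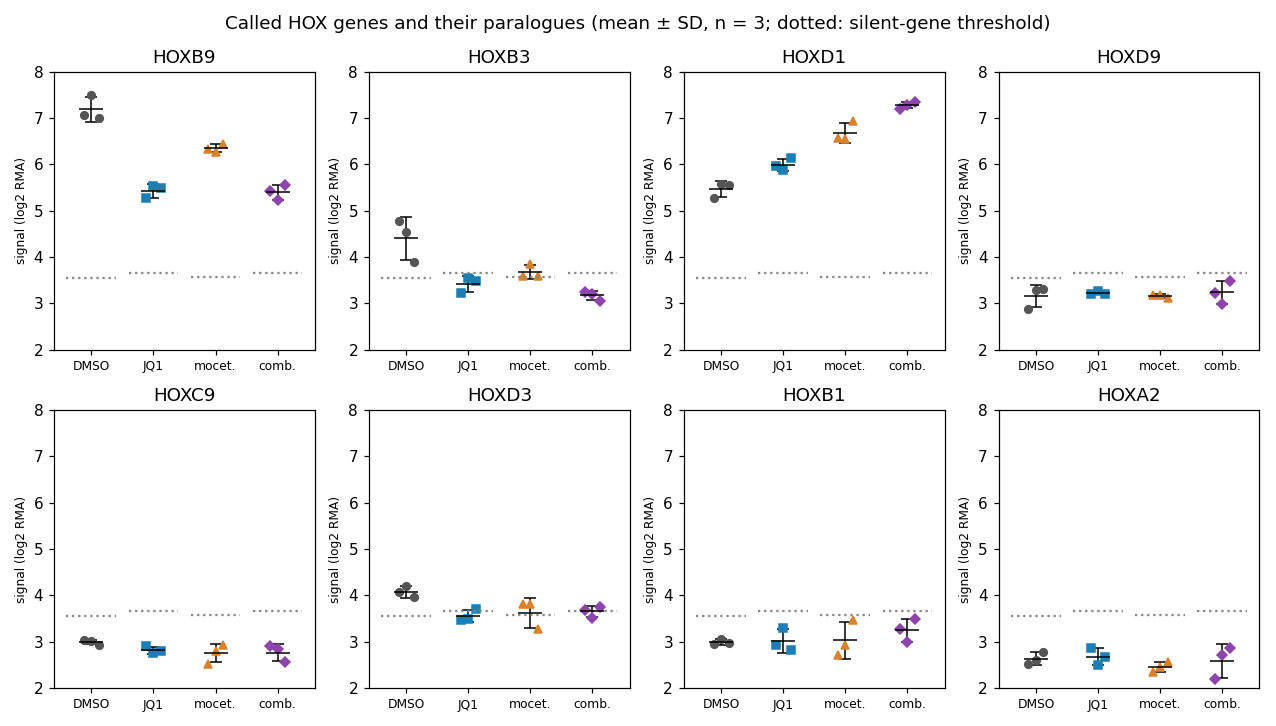
Signal (vertical axis, log2 RMA, starting at 2) on each array of HOXB9, HOXB3 and HOXD1 and of 5 paralogues or low-numbered members beside them, with the mean and SD of 3 arrays per treatment and the silent-gene threshold of that treatment dotted. HOXB9 falls from 7.19 in DMSO to 5.43 with JQ1 and 5.40 with the combination, HOXD1 climbs from 5.47 to 7.28, and HOXD9, HOXC9, HOXB1 and HOXA2 stay under the dotted lines.

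The promoter of HOXD1 is shown with that of its neighbour HOXD3, because the former gene rose while the latter was lower in the same arrays. Both stretches are the 250 bases before the annotated start in RefSeq (GRCh38.p14, plus strand, chr2:176188418-176188667 for HOXD1 and chr2:176157057-176157306 for HOXD3), written 5′ to 3′ with every CpG in capitals.
HOXD1: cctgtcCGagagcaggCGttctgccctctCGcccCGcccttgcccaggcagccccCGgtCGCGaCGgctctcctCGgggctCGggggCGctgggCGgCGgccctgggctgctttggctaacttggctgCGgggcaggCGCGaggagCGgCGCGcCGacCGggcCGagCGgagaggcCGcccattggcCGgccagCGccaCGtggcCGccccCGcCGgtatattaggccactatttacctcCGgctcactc
HOXD3: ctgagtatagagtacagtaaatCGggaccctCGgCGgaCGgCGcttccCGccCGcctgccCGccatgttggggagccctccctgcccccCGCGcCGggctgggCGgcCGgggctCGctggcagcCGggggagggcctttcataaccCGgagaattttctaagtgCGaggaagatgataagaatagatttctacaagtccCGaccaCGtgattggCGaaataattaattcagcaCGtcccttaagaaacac
The HOXD1 stretch holds 31 CpG and the HOXD3 stretch 21, where the median over 35116 promoters of the same length is 11. Of all these promoters, 10.9% hold as many CpG as HOXD1 or more, and 30.2% as many as HOXD3 or more. The letters TAAT, the core bound by many homeodomains, were searched on both strands and occur at 1 position in the HOXD1 stretch and at 3 in that of HOXD3. At least 1 such position is found in 47.4% of all promoters. A TATAAA box, searched on both strands, is in neither stretch and in 10.7% of all promoters. RefSeq promoters were at hand for 9 of the 24 members, with 7 of the 9 holding TAAT and 1, HOXD13, holding TATAAA. The other 5 HOXD promoters held between 16 and 28 CpG, HOXA2 held 8 and HOXB1 7.

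No other HOXD member was called, while the probe sets that list HOXD3 and HOXD4 together belong to no member and were called down. HOXD8, HOXD10, HOXD11 and HOXD12, which pattern the limbs and the posterior trunk, were above the silent-gene threshold in every treatment, with means from 3.72 to 4.64, and the arrays of DMSO overlapped with those of JQ1 and of the combination for each of them. HOXD10 had the highest of these means and read 4.12, 3.98 and 4.38 in DMSO against 4.46, 4.67 and 4.80 in mocetinostat, which do not overlap, yet the change of 0.48 had an adjusted p of 0.0985. HOXD12 read 4.12, 4.02 and 4.31 in DMSO against 3.86, 3.93 and 3.98 in mocetinostat, again without overlap but lower, with a change of −0.23 and an adjusted p of 0.161. Such lack of overlap with mocetinostat was found in 26.6% of all genes for higher and 25.1% for lower arrays. HOXD9 and HOXD13, the latter a gene of digit development, were below the threshold throughout. With mocetinostat the changes in HOXD ranged from −0.45 for HOXD3 to 1.22 for HOXD1 with a median of −0.16, and with the combination from −0.43 to 1.81 with a median of −0.07.

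In HOXC no member was called in any comparison. HOXC8 had means from 3.80 to 4.15 and HOXC12 from 3.80 to 4.18, both above the threshold in every treatment. HOXC9, HOXC10, HOXC11 and HOXC13, the last a regulator of hair and nail keratins, were below it in every treatment. The changes against DMSO spanned −0.35 to 0.37 with JQ1, −0.35 to 0.01 with mocetinostat and −0.38 to 0.10 with the combination. HOXA2, which patterns the second pharyngeal arch, changed by 0.04, −0.18 and −0.05 at a signal at the level of silent genes.

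Across the 21 members called in no comparison, the changes against DMSO ran from −0.52 for HOXD3 to 0.37 for HOXC10 with JQ1, from −0.45 for HOXD3 to 0.48 for HOXD10 with mocetinostat, and from −0.43 for HOXD3 to 0.27 for HOXD10 with the combination. The median SE over the 24 members was 0.16 in each of these comparisons. Between treatments, HOXD1 in the combination against JQ1 was the only call among the members (1 up, 4.46% of all genes, and 0 down, 3.23%). The combination against mocetinostat gave 0 up (1.22%) and 0 down (2.68%), and mocetinostat against JQ1 gave 0 up (6.32%) and 0 down (2.89%). For the departure from the sum, 0 members were called up (3.39%) and 0 down (2.91%). In limma, 3 members had an unadjusted p under 0.05 in each of these 3 comparisons, where 34.1%, 44.3% and 31.2% of all genes had one. At an adjusted p under 0.05 alone, 1 member passed for the combination against JQ1 (31.0% of all genes), 2 for the combination against mocetinostat (22.2%) and 2 for mocetinostat against JQ1 (34.2%), all of them HOXB9 or HOXD1. The median change over the members was −0.03 for the combination against JQ1, 0.04 against mocetinostat, 0.04 for mocetinostat against JQ1 and 0.14 for the departure, where all genes had −0.02, −0.01, −0.03 and −0.03.

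Noncoding genes inside the clusters showed little. Of 16 measured, 5 were above the silent-gene threshold in DMSO and 0 were called in any comparison with DMSO. In these comparisons, 2.14% to 7.08% of all genes were called up and 4.51% to 8.11% down. HAGLR, a long noncoding RNA gene between HOXD3 and HOXD1, had the highest mean in DMSO of these 16. It read 4.18, 4.24 and 4.30 in DMSO, 4.40, 4.34 and 4.52 in JQ1, 5.08, 5.16 and 4.92 in mocetinostat, and 4.74, 4.39 and 4.71 in the combination. All its treated arrays were above the DMSO arrays, the change with mocetinostat was 0.81 (SE 0.11, adjusted p = 2.0e-04) and that with the combination 0.37 (SE 0.11, adjusted p = 0.0295), both under 2-fold. HOTAIR, the long noncoding RNA of HOXC studied in breast cancer metastasis, was below the threshold in every treatment, with means from 2.41 to 2.76, and so was HOTTIP of HOXA, with means from 3.20 to 3.49.

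The microRNA genes of the clusters are shown because miR-196a is known to target HOX transcripts of group 8 and is made from a gene in HOXB and a gene in HOXC. The mature sequences are those of RefSeq (GRCh38.p14), 5′ to 3′, with the seed (bases 2 to 8) in capitals.
hsa-miR-196a-5p, from MIR196A1 on chromosome 17 and MIR196A2 on chromosome 12: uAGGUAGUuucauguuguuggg
hsa-miR-615-3p, from MIR615 on chromosome 12: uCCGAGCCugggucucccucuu
The seeds of these differ. The probe sets of MIR196A1 (means 2.96 to 3.06), MIR196A2 (2.91 to 3.31) and MIR615 (3.47 to 3.57) were below the silent-gene threshold in every treatment. These arrays read transcripts of the genes, and mature microRNAs were not measured.

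The partners that help HOX proteins bind DNA included a fall of PBX3. Of 7 measured TALE genes, 0 were called with JQ1 (2.14% of all genes up and 4.51% down). Mocetinostat gave 1 up and 1 down (7.08% and 5.50% of all genes), and the combination 1 down (8.11%). By adjusted p under 0.05 alone, 1 was higher and 2 lower with JQ1 (13% and 14.1% of all genes). These counts were 2 and 2 with mocetinostat (20.2% and 18.2%), and 3 and 2 with the combination (20.3% and 21.2%). PBX3 read 6.58, 6.64 and 6.63 in DMSO, 5.09, 5.08 and 4.92 in mocetinostat, and 4.98, 5.00 and 5.24 in the combination. The treated groups do not overlap with DMSO, and the log2 changes were −1.58 and −1.54 (SE 0.12, adjusted p = 1.5e-06 and 1.4e-06). With JQ1 it changed by −0.57. MEIS3 went from 3.14 ± 0.18 in DMSO, a mean below the threshold, to 4.34 ± 0.25 with mocetinostat (1.20, SE 0.26, adjusted p = 0.00442), a call that was lost without any single DMSO array, any single mocetinostat array or the first JQ1 array. The median change over the list was 0.00, 0.26 and 0.21 with JQ1, mocetinostat and the combination.

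Polycomb genes, which repress the clusters, were called in both directions. Of 25 measured, all above the silent-gene threshold in DMSO, 3 were called down and 0 up with JQ1, 5 down and 2 up with mocetinostat, and 4 down and 2 up with the combination, where the shares of all genes were 4.51% and 2.14%, 5.50% and 7.08%, and 8.11% and 7.06%. The median changes were −0.17, −0.26 and −0.16. At an adjusted p under 0.05 without a minimum fold, 7 were lower and 3 higher with JQ1, 12 and 4 with mocetinostat, and 11 and 5 with the combination. Of all genes, 14.1% were lower and 13% higher with JQ1, 18.2% and 20.2% with mocetinostat, and 21.2% and 20.3% with the combination. PHF19, which binds methylated histone H3 and brings in PRC2, changed by −3.00, −3.84 and −3.70 (SE 0.12, adjusted p = 2.7e-08, 1.1e-09 and 1.0e-09). EZH2, the methyltransferase of PRC2, changed by −1.42, −1.44 and −1.21 (SE 0.10, adjusted p = 1.8e-06, 7.2e-07 and 2.2e-06). SCMH1, a Polycomb protein of PRC1, fell with mocetinostat (−1.80, SE 0.08) and the combination (−2.11). RYBP, a subunit of variant PRC1 complexes, rose with mocetinostat (1.31, SE 0.08) and the combination (1.76). JQ1 changed SCMH1 by −0.90 (adjusted p = 1.2e-05) and RYBP by 0.98 (adjusted p = 4.9e-06), both under 2-fold.

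Of 14 measured genes that keep HOX chromatin active, 0 were called with JQ1, 1 was called up with mocetinostat (7.08% of all genes) and 3 up with the combination (7.06%), 0 were called down, and the medians were 0.07, −0.27 and 0.18. At an adjusted p under 0.05 without a minimum fold, 5 were higher and 6 lower with mocetinostat (20.2% and 18.2% of all genes). With the combination these were 5 and 5 (20.3% and 21.2%). MLLT3, a partner of MLL in the elongation machinery, rose with mocetinostat (1.11, SE 0.10, adjusted p = 4.2e-06) and the combination (1.55, adjusted p = 2.0e-07). Its change with JQ1 was 0.44 (adjusted p = 0.00778), under 2-fold. KDM6B, which removes the Polycomb mark from histone H3, rose with the combination (1.33, SE 0.12, adjusted p = 4.5e-06) and had changes of 0.32 with JQ1 and −0.44 with mocetinostat. RBBP5, a core subunit of the MLL complexes, rose with the combination (1.21, SE 0.10, adjusted p = 1.5e-06). It was also higher with mocetinostat (0.94, adjusted p = 1.7e-05) and JQ1 (0.52, adjusted p = 0.00244), both under 2-fold. The combination differed from mocetinostat by 0.28 in RBBP5 (adjusted p = 0.0857).

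The retinoic acid pathway acts upstream of the low-numbered HOX genes, and 16 of its genes were measured. Called up were 3 with mocetinostat (7.08% of all genes) and 3 with the combination (7.06%). With JQ1, 1 was called down (4.51%). The medians were −0.05, 0.24 and 0.19 with JQ1, mocetinostat and the combination. At an adjusted p under 0.05 without a minimum fold, 6 genes were higher and 1 lower with mocetinostat (20.2% and 18.2% of all genes). These counts were 4 and 2 for the combination (20.3% and 21.2%), and 2 and 1 for JQ1 (13% and 14.1%). RXRA was the lower gene with mocetinostat (log2 change −0.89), and it changed by −0.68 in the combination, both under 2-fold. RARB, a retinoic acid receptor, was below the silent-gene threshold in DMSO (3.00 ± 0.10) and JQ1 (3.01 ± 0.07) and above it with mocetinostat (4.78 ± 0.17) and the combination (5.17 ± 0.11). Its log2 changes were 1.77 and 2.16 (SE 0.11, adjusted p = 2.4e-07 and 3.5e-08). CRABP2, which carries retinoic acid to its receptors, rose with mocetinostat (1.13, SE 0.14) and further with the combination (2.27). RARA rose by 1.19 and 1.11 (SE 0.12). CYP26B1, which degrades retinoic acid, changed by −1.51 with JQ1 (SE 0.10, adjusted p = 8.7e-07). Its JQ1 mean of 3.67 lay at the silent-gene threshold of 3.66, so the probe set could show little further loss. Mocetinostat changed CYP26B1 by 0.83 (adjusted p = 4.6e-05, under 2-fold) and the combination by 0.28.

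**Figure D4:**
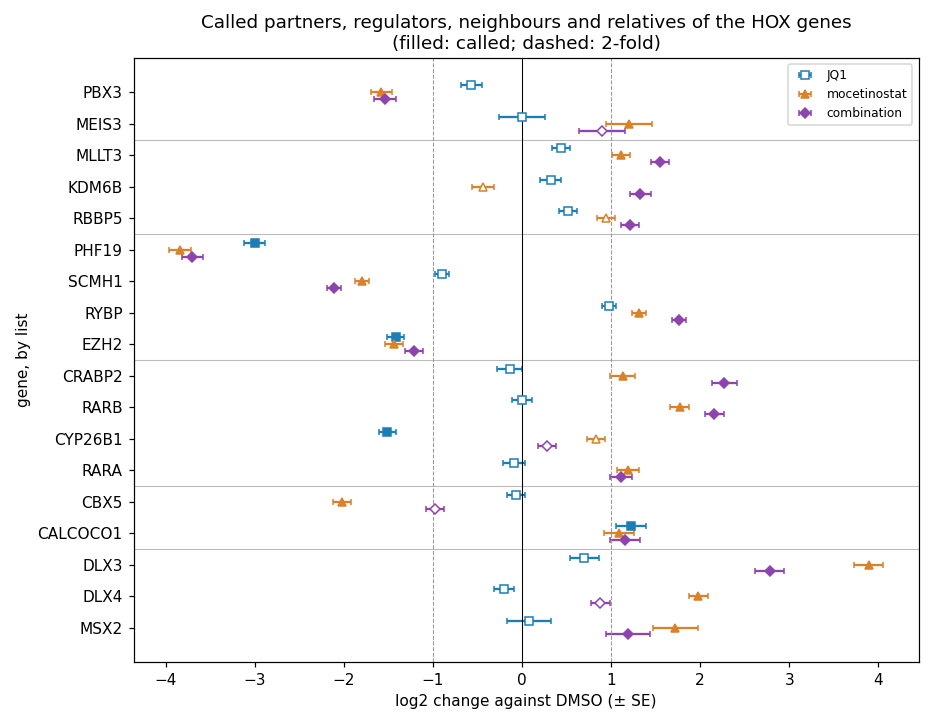
Log2 change against DMSO (horizontal axis, with its standard error) of the called genes named from 6 lists around the HOX genes, separated by grey lines: TALE partners, activators of HOX chromatin, Polycomb genes, the retinoic acid pathway, neighbours of the clusters and other homeobox genes. Filled symbols passed the call, dashed lines mark 2-fold, and the values reach from −3.84 for PHF19 to 3.89 for DLX3, both with mocetinostat.

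Genes that flank the clusters were compared as well. Of 21 measured, 1 was called up with JQ1 (2.14% of all genes), 1 up and 1 down with mocetinostat (7.08% and 5.50%), and 1 up with the combination (7.06%). The medians were 0.11, 0.03 and 0.06. By adjusted p under 0.05 alone, 4 were higher and 3 lower with JQ1 (13% and 14.1% of all genes). These counts were 9 and 5 with mocetinostat (20.2% and 18.2%), and 6 and 6 with the combination (20.3% and 21.2%). Both called genes lie beside HOXC, where no member was called. CALCOCO1, a transcriptional coactivator next to HOXC13, changed by 1.22 in JQ1, 1.09 in mocetinostat and 1.16 in the combination (SE 0.17, adjusted p = 3.2e-04, 4.5e-04 and 2.3e-04), and the change with mocetinostat missed the call without the third DMSO array (0.98). CBX5, the gene of the heterochromatin protein HP1 alpha at the other side, fell by 2.02 with mocetinostat (SE 0.10, adjusted p = 5.0e-08). It changed by −0.98 with the combination and −0.07 with JQ1. MTX2, the gene after HOXD1, read 8.93 ± 0.03 in DMSO and changed by −0.22, 0.20 and 0.00, none of them called. EVX2, the homeobox gene before HOXD13, changed by −0.01, −0.01 and 0.18.

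Of the closest relatives of the HOX genes outside the clusters, the ParaHox, CDX and EVX genes, 0 of 9 measured were called with any treatment. Of 44 other genes of the same homeobox class, 0 were called with JQ1 (2.14% of all genes up and 4.51% down). Called up were 3 with mocetinostat (7.08% of all genes) and 2 with the combination (7.06%), and 0 were called down (5.50% and 8.11%). The medians were −0.03, −0.04 and −0.08 in the 3 treatments. DLX3, a regulator of skin and placental differentiation, read 4.36, 4.59 and 4.90 in DMSO, 5.04, 5.32 and 5.59 in JQ1, 8.63, 8.42 and 8.47 in mocetinostat, and 7.36, 7.53 and 7.30 in the combination. The combination lay between mocetinostat and DMSO, with log2 changes of 3.89 with mocetinostat and 2.78 with the combination (SE 0.16, adjusted p = 9.9e-09 and 1.1e-07). DLX4 rose by 1.98 with mocetinostat (SE 0.11) and changed by 0.88 with the combination. For MSX2 the change was 1.72 with mocetinostat (SE 0.25, adjusted p = 2.5e-04) and 1.19 in the combination (SE 0.25, adjusted p = 0.00296), and the latter call was lost without any single combination array or without the first or the third DMSO array (1.03 and 1.05).

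Markers of the cell type moved beside these results. Of all genes, 2.14% were called up and 4.51% down with JQ1, 7.08% and 5.50% with mocetinostat, and 7.06% and 8.11% with the combination. Of 7 mesenchymal markers, 0 were called with JQ1, 2 were called down with mocetinostat and 4 down with the combination. Their median change with the combination was −1.09. Of 7 luminal markers 0 were called up and 1 down with JQ1, 2 up and 1 down with mocetinostat, and 1 up and 2 down with the combination. The part of these shifts in the changes of the HOX genes was not tested.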

How the data were processed

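For 12 arrays with 53617 probe sets each, the authors deposited RMA values on the log2 scale, and these were used without further normalization. The RMA version and its probe definitions are not given in the sources used here. Each array was assigned by its source name, which the title matches. The free-text description names another treatment for most samples. The sample labels give 3.17 μM mocetinostat and RPMI medium, where the study's text differs. The 3 samples per treatment are described as independent biological replicates.

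Symbols came from the platform annotation given for the array (23866 probe sets with 1 symbol, 1852 with several, 27899 with none listed), and a gene is given by its 1-symbol probe set with the highest mean. The 4 treatments were fitted together with limma 3.58.1 in R 4.3.3 (8 residual degrees of freedom), and the 7 comparisons were contrasts of that fit. The call follows the filter of the study, p under 0.001 before adjustment and 2-fold or more. The script was tested on simulated data. The number of arrays limits the precision. RMA equalizes array distributions, so a shift shared by most transcripts would not show.

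All 24 members are accounted for, with values on every array for those called and paralogues beside them. From each other list, at most 4 called genes with the largest change against DMSO are named. HAGLR, MTX2, EVX2, the microRNA genes, HOTAIR, HOTTIP, HOXD10, HOXD12 and the printed promoters were added after their values were seen. The members and gene lists were chosen with earlier results of these data known. No protein sequences were used here.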

Additional observations from a re-analysis of the deposited data

Results flagged for a closer look

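The departure of the combination from the summed log2 changes tests whether the effect of mocetinostat differs with and without JQ1. Among the HOX genes, HOXB9 had an adjusted p under 0.05 (0.81, SE 0.20, adjusted p = 0.0233 in limma).

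Of the other genes named, the combination lay above the sum for EZH2 (1.65, SE 0.14), KDM6B (1.46, SE 0.17), CRABP2 (1.28, SE 0.20), CBX5 (1.11, SE 0.14), CYP26B1 (0.96, SE 0.14), PBX3 (0.61, SE 0.17) and SCMH1 (0.59, SE 0.12). It lay below the sum for DLX3 (−1.81, SE 0.23), CALCOCO1 (−1.15, SE 0.24), DLX4 (−0.90, SE 0.15) and RYBP (−0.53, SE 0.11). The adjusted p values were at most 0.0436. For CYP26B1 the JQ1 mean of 3.67 lay at the silent-gene threshold of 3.66. The size of its departure thus rests on a fall that reached about that level. For PHF19 the departure was 3.14 (SE 0.17), but the sum would give a level of 1.83, below the median of silent genes in the combination (2.73), so the array could not have shown it and the value says nothing of the sum.

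Among the 4 probe sets with several HOX symbols, which were not used for any gene, 2 that list HOXD3 and HOXD4 together were called down in every treatment against DMSO. The brighter of these had means of 6.74 in DMSO, 5.58 in JQ1, 5.74 in mocetinostat and 5.50 in the combination, with log2 changes of −1.16, −1.0 and −1.24 (SE 0.11, adjusted p = 1.9e-05, 3.2e-05 and 4.5e-06). Its departure from the sum was 0.93 (SE 0.16, adjusted p = 0.00263), under 2-fold. Here the sum would give 4.57, above the silent-gene threshold of 3.66. The other had 5.97, 4.60, 4.73 and 4.48, with changes of −1.37, −1.24 and −1.49 (SE 0.15, adjusted p = 4.5e-05, 5.3e-05 and 9.6e-06), and a departure from the sum of 1.13 (SE 0.21, adjusted p = 0.00444), where the sum would give 3.36, below the silent-gene threshold of 3.66. Which of the 2 genes gave these signals cannot be told from the array. The other 2 such probe sets were not called. Of these, the set that lists HOXB6 and HOXB3 had a DMSO mean of 2.97 and changes of 0.16, −0.03 and −0.06. Its DMSO mean lay below the silent-gene threshold, so a fall could not have been read from it.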

How the results depend on the processing

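Scaling the arrays to 24 ribosomal protein genes shifted the median of all genes by −0.21 with JQ1, −0.14 with mocetinostat, −0.33 with the combination, −0.12 for the combination against JQ1 and −0.19 against mocetinostat. The medians over the HOX genes then were −0.26, −0.27, −0.40, −0.15 and −0.15 in that order, and 2 members were called down with JQ1 (HOXB3 at −1.20 was added) and 1 for the combination against mocetinostat (HOXB9 at −1.14). At an adjusted p under 0.05 with no minimum fold, 1 member was up and 3 down with JQ1, 3 down with mocetinostat, 1 up and 1 down for the combination against mocetinostat, 2 up for mocetinostat against JQ1 and 1 up for the departure. With a block for the number that the titles carry, 1 member was down with mocetinostat and 1 up for the departure, HOXB9 in both (−1.07 and 1.15), and the difference of HOXB9 between combination and JQ1 turned to 0.08.

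Arrays with the same replicate number did not deviate together (correlations −0.09 to 0.04, none over 0.1). For arrays with the same number in the title, the correlations ran from −0.06 to 0.14. With the replicate number as a block, the combination called 1 HOX gene up and 2 down, JQ1 0 up and 1 down, and mocetinostat 1 up and 0 down, the same counts as without it.

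Without single arrays, calls down ranged from 1 to 2 with JQ1 and from 0 to 1 for the combination against mocetinostat. The median ranged from −0.08 to 0.04 with JQ1 and from 0.05 to 0.19 for the departure. The difference of HOXB9 between combination and JQ1 ranged from −0.11 to 0.05, and was 0.02 without the second JQ1 array and 0.05 without the second combination array, and the departure of HOXD1 ranged from 0.00, without the second mocetinostat array, to 0.20. The calls of HOXB9, HOXB3 and HOXD1 against DMSO held under all alternatives, also where probe sets of low mean were left out, which kept 14 of the 24 members. For 10 members the signal did not exceed that of silent genes, so small changes could not be read.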
